A study of Macaca nemestrina with 15 samples.

Results

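*SYTL3*, *YPEL1*, *ADCY9*, *CEMIP2*, *ELOVL4*, *OSGIN2*, *SLC2A9* and *RNF138* are 8 genes whose expression in PBMCs of pig-tailed macaques moved in the same direction in at least 4 of 5 animals between week 12 of islatravir (ISL) dosing and week 18, after dosing had stopped. They are 8 of the 28865 features in the count table and were found by gene name. Of these features, 12880 passed the filter on low counts, and all 8 genes did. The direction criterion alone was met by 4534 of the 12880 features tested, or 35.2%, so the 8 genes are a small part of those that meet it. They held 8 of the 13 smallest unadjusted p values of the comparison of week 18 with week 12, at ranks 2 to 13. Values of that comparison therefore chose these genes, and its differences are given below as a description with no test.

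The 5 animals were female *Macaca nemestrina* given ISL by mouth once a week at 30 mg/kg for 12 weeks. Each was bled before treatment, at week 12 and at week 18, and each sample gave 1 RNA-seq library from the total RNA of PBMCs, 15 libraries in all. Week 18 was described as 6 weeks after the last dose, while by the dates in the names of the libraries the second sample came 56 or 57 days and the third sample 84 days after the first. What these dates mark is not stated. The sources also describe the last sample as taken earlier after the last dose than that. The days are counted from the first sample, so the exact times of all samples relative to dosing are uncertain. The names week 12 and week 18 follow the labels, and their placing during and after dosing follows the authors' description. No untreated animals were sequenced, so drug exposure and the passage of time cannot be told apart. All 8 T-cell, all 10 B-cell and all 8 monocyte marker genes measured had reads in 15 of 15 libraries. Libraries held 5610597 to 10379572 counts on genes, and those of animal Z15303 at week 12 and week 18 were the smallest, with 5610597 and 5886482. Values are read counts scaled to a common library total (CPM) with edgeR's TMM factors. They are listed throughout in the order Z15228, Z13076, Z15339, Z15303 and Z15408.

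The 8 genes belong to unrelated pathways. *SYTL3* encodes a synaptotagmin-like protein, a C2-domain protein of vesicle trafficking whose family binds the small GTPase RAB27A on secretory vesicles and granules, among them the lytic granules of cytotoxic lymphocytes. *ADCY9* encodes an adenylyl cyclase, which makes cAMP, a second messenger that restrains the activation of lymphocytes. *CEMIP2* encodes a transmembrane protein linked to the breakdown of hyaluronan. *ELOVL4* encodes an elongase that makes very long chain fatty acids, and *SLC2A9* a transporter of urate and hexoses. *RNF138* encodes a RING-type ubiquitin ligase that acts in the repair of DNA double-strand breaks, *OSGIN2* a protein related to an oxidative stress-induced growth inhibitor, and *YPEL1* a small zinc-binding protein of the Yippee-like family. In these mixed PBMCs, fewer cells of a type and less RNA per cell cannot be told apart.

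*SYTL3* had its highest value of the 3 time points at week 12 in 5 of 5 animals, as did 0.256% of the features tested, and 2.82% did in at least 4. Before treatment it was measured at 66.3, 66.7, 55.2, 43.9 and 45.3 CPM. At week 12 the values were 72.5, 108, 85.8, 52.7 and 63.5 CPM. At week 18 they were 48.0, 61.2, 45.3, 45.7 and 37.3 CPM. Animal Z13076 was the highest at all 3 time points, while the order of the other animals changed between week 12 and week 18. The ranges at these time points, 52.7 to 108 and 37.3 to 61.2 CPM, overlapped although each animal was lower at week 18. The means were 55.5 ± 11.0, 76.5 ± 21.5 and 47.5 ± 8.67 CPM (SD, n = 5). The log2 fold change between week 12 and week 18 was −0.69 (standard error 0.19), and the within-animal differences of log2 CPM were −0.59, −0.82, −0.92, −0.20 and −0.77. The smallest of these belonged to Z15303, whose 2 later libraries were the shallowest. Without this animal the log2 fold change was −0.79.

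**Figure D1:**
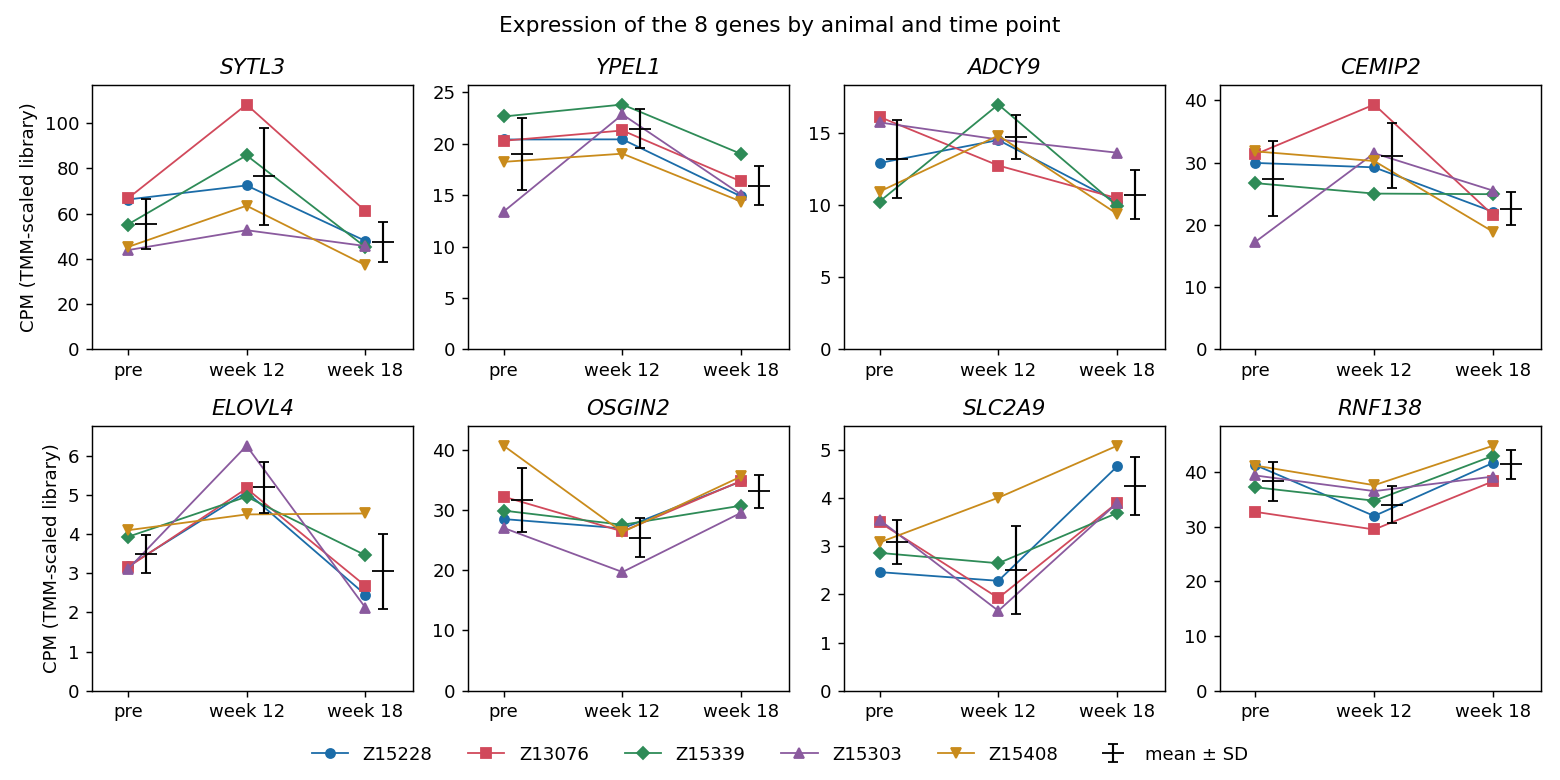
CPM (vertical axis, linear, from 0) of each of the 8 genes before treatment, at week 12 and at week 18. Each line is 1 animal, and the black bars to the right of the points give the mean ± SD of 5 animals. *SYTL3* and *YPEL1* have their highest value at week 12 in 5 of 5 animals, and *OSGIN2* and *RNF138* their lowest. For *YPEL1* in Z15228 week 12 is above pre-treatment by only 0.00096 on the log2 scale.

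*YPEL1* was lower in every animal once dosing had stopped, with no overlap between the 2 time points, although the lowest value at week 12 and the highest at week 18 both round to 19.0 CPM. Its values were 20.4, 20.3, 22.6, 13.4 and 18.2 CPM before treatment. They were 20.4, 21.3, 23.8, 22.8 and 19.0 CPM at week 12 and 14.9, 16.3, 19.0, 15.1 and 14.4 CPM at week 18. In the other 4 animals the level at week 12 was nearly that before treatment, whereas Z15303 stood at 13.4 CPM before treatment and 22.8 CPM at week 12. The means were 19.0 ± 3.49, 21.5 ± 1.90 and 15.9 ± 1.87 CPM (SD, n = 5), and the log2 fold change from week 12 to week 18 was −0.43 (standard error 0.15). Of all features tested, 0.0466% were lower at week 18 without overlap and 0.0621% were higher. *ADCY9* had 12.9, 16.1, 10.3, 15.7 and 10.9 CPM before treatment. It had 14.5, 12.7, 17.0, 14.6 and 14.8 CPM at week 12 and 10.2, 10.5, 9.95, 13.6 and 9.40 CPM at week 18. Here the first step differed among animals, with week 12 above the pre-treatment value in 3 and below it in 2, while week 18 was the lowest of the 3 time points in 5 of 5. The means were 13.2 ± 2.68, 14.7 ± 1.51 and 10.7 ± 1.67 CPM (SD, n = 5). From week 12 to week 18 the log2 fold change of *ADCY9* was −0.46 (standard error 0.16).

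*CEMIP2* was measured at 30.0, 31.3, 26.7, 17.3 and 31.8 CPM before treatment. Its values were 29.2, 39.3, 25.0, 31.5 and 30.3 CPM at week 12 and 22.1, 21.6, 24.9, 25.5 and 18.9 CPM at week 18. Z15339 hardly moved between the last 2 samples, by −0.0054 on the log2 scale, so *CEMIP2* had the same direction in 5 animals by that margin. In Z15303 the pre-treatment value was the lowest of its 3 samples, and in the other 4 animals week 18 was. The means were 27.4 ± 6.00, 31.1 ± 5.22 and 22.6 ± 2.68 CPM (SD, n = 5), and the log2 fold change was −0.46 (standard error 0.17) from week 12 to week 18. *ELOVL4* rests on few reads, 12 to 49 per library. Its CPM values were 3.18, 3.16, 3.93, 3.10 and 4.10 before treatment. At week 12 they were 5.08, 5.17, 4.96, 6.26 and 4.51, all above the pre-treatment range, and at week 18 they were 2.46, 2.68, 3.47, 2.13 and 4.53. Features higher at week 12 than before treatment without overlap made up 0.116% of those tested, and lower ones 0.163%. From week 12 to week 18 *ELOVL4* was lower in 4 animals and higher by 0.0074 on the log2 scale in Z15408, and it was the only one of the 8 genes that met the criterion in 4 animals rather than 5. The means were 3.50 ± 0.483, 5.20 ± 0.649 and 3.05 ± 0.964 CPM (SD, n = 5), and the log2 fold change was −0.75 (standard error 0.24). The lowest count, 12 reads in Z15303 at week 18, has an exact 95% Poisson interval of 6.20 to 21.0 reads, which covers counting error only.

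The other 3 genes were higher in all 5 animals at the last sample than during dosing. *OSGIN2* started from 28.5, 32.2, 29.9, 27.0 and 40.7 CPM. The values were 27.0, 26.5, 27.6, 19.7 and 26.3 CPM at week 12 and 34.8, 34.9, 30.7, 29.6 and 35.6 CPM at week 18. Week 12 was the lowest time point in 5 of 5 animals, as in 0.179% of the features tested, and did not overlap week 18, and 4 of the values at week 12 lay within 26.3 to 27.6 CPM. The means were 31.7 ± 5.39, 25.4 ± 3.22 and 33.1 ± 2.74 CPM (SD, n = 5), and the log2 fold change from week 12 to week 18 was 0.38 (standard error 0.13). *RNF138* had 41.2, 32.7, 37.2, 39.3 and 41.1 CPM at the first sample. It had 31.9, 29.5, 34.7, 36.5 and 37.6 CPM at week 12 and 41.6, 38.3, 42.9, 39.1 and 44.8 CPM at week 18, again without overlap between the last 2 time points and with week 12 the lowest in 5 of 5 animals. The coefficient of variation among animals was 9.28%, 9.77% and 6.47% at the 3 time points. The means were 38.3 ± 3.56, 34.0 ± 3.32 and 41.3 ± 2.68 CPM (SD, n = 5), and the log2 fold change was 0.28 (standard error 0.11). *SLC2A9*, with 9 to 46 reads per library, had 2.46, 3.49, 2.86, 3.55 and 3.08 CPM before treatment. At week 12 it had 2.28, 1.92, 2.65, 1.66 and 4.01 CPM and at week 18 4.66, 3.90, 3.69, 3.90 and 5.09 CPM. In Z15408 it was higher at each later time point, and in the other 4 animals week 12 was the lowest, as it was in at least 4 animals for 3.25% of the features tested. The means were 3.09 ± 0.452, 2.50 ± 0.919 and 4.25 ± 0.597 CPM (SD, n = 5), at a log2 fold change of 0.75 (standard error 0.27). The 9 reads of Z15303 at week 12 have an exact 95% Poisson interval of 4.12 to 17.1.

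Across all 8 genes, 7 moved the same way in 5 of 5 animals from week 12 to week 18, where 2.87% of the features tested were lower and 2.97% higher in 5 of 5, and 17.4% were lower and 17.8% higher in at least 4. The ranks 2 to 13 of the 8 genes by unadjusted p also held 2 features with no symbol, at ranks 4 and 6, and 2 named genes that are not among the 8. These were *BCL2L11* at rank 11, which encodes a pro-apoptotic protein of the BCL2 family, at a log2 fold change of −0.46 (standard error 0.17), and *OTUD7B* at rank 12, a deubiquitinase gene, at −0.78 (standard error 0.29). Rank 1 was RF00069, a feature named by an RNA family identifier, at 1.33 (standard error 0.30). The next after *RNF138* at rank 13 were *EFR3B* at −1.14 (standard error 0.43) and *AMACR* at 0.55 (standard error 0.21). The animals Z15339, Z15303 and Z15408 share the dates in their library names, and the other 2 have dates of their own. The mean within-animal difference of *SYTL3* was −0.63 in the 3 and −0.71 in the other 2. For all 8 genes the 2 sets of animals had differences of the same sign, with *SLC2A9* at 0.63 and 0.95 and *CEMIP2* at −0.33 and −0.63. The 7 genes that moved the same way in 5 of 5 animals give the same sign in any split. The shared sign therefore follows from how the genes were chosen and adds no support.

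**Figure D2:**
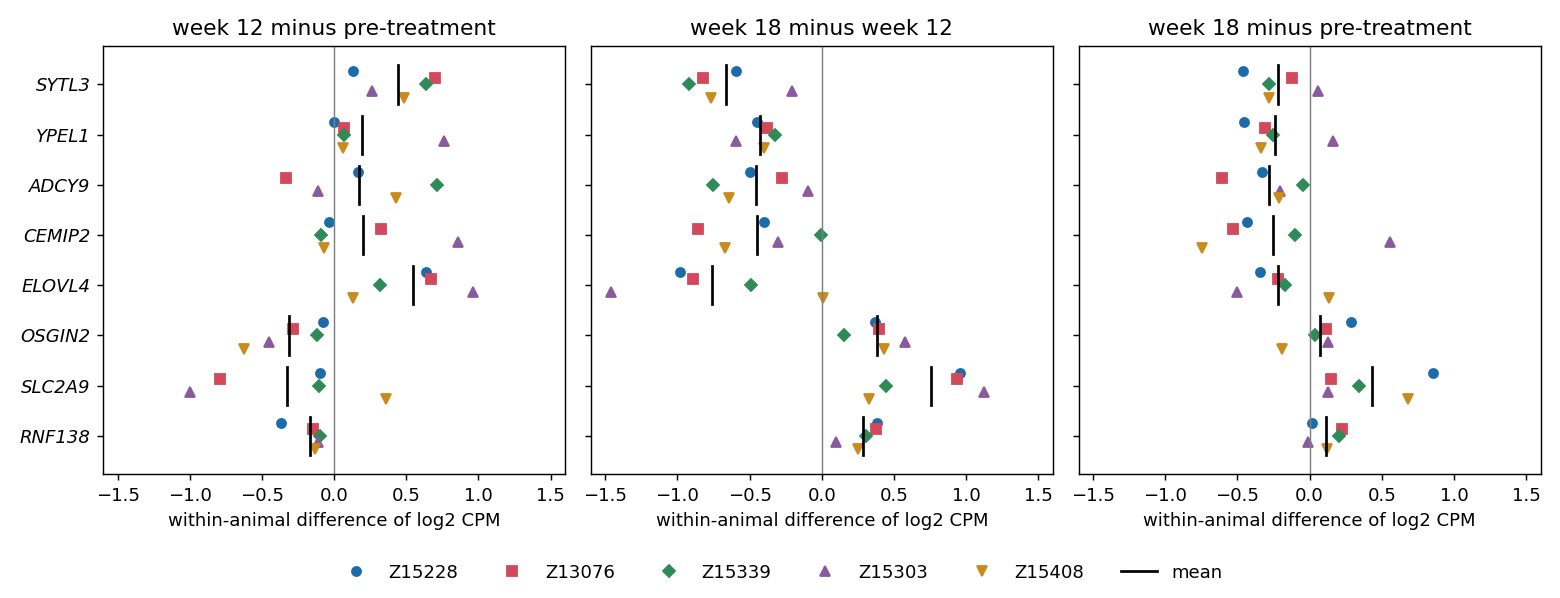
Within-animal differences of log2 CPM (horizontal axis) for the 8 genes in 3 pairs of time points, 1 symbol per animal, with the mean of 5 animals as a black bar. In the middle panel, which chose the genes, the points of 7 genes lie on 1 side of 0. In the right panel 6 of the 8 genes have points on both sides.

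Whether expression returned to the pre-treatment level was examined by comparing week 18 with the samples taken before treatment. These comparisons share the week 18 libraries with the choice of the genes. By edgeR's quasi-likelihood test none of the 8 genes was called at 0.05 (adjusted p = 1 for each). No other feature was called either (0% of 12880), while before adjustment 218 of them (1.69%) were under 0.05, and 0 were called by DESeq2 (Wald). With the animal as a block edgeR called 1 feature (0.00776%) and DESeq2 43 (0.334%), none of them among the 8 genes. The estimates did not all center on 0. The 5 genes that were lower at week 18 than at week 12 had negative log2 fold changes against the pre-treatment level, and the 3 that were higher had positive ones. For *SYTL3* the log2 fold change was −0.22 with a 95% interval of −0.63 to 0.18, and −0.47 to 0.02 where the animal was a block. *SYTL3* was lower at week 18 than before treatment in 4 of 5 animals, the largest difference being −0.46 in Z15228, and 0.06 on the log2 scale higher in Z15303. *YPEL1* had −0.25 (−0.56 to 0.06), *ADCY9* −0.30 (−0.65 to 0.05), *CEMIP2* −0.28 (−0.64 to 0.08) and *ELOVL4* −0.18 (−0.70 to 0.33). *ADCY9* was below its pre-treatment value in 5 of 5 animals and the other 3 in 4 of 5, where 19% of the features tested were lower in at least 4 and 3.49% in 5. *CEMIP2* was uneven among animals, with within-animal differences of −0.43, −0.53, −0.10, 0.55 and −0.74. Leaving out 1 animal moved several of these values by over 1.5 times. *CEMIP2* was −0.45 without Z15303 and −0.16 without Z15408, and *ELOVL4* was −0.12 and −0.31 without the same animals. *SYTL3* was −0.15 without Z15228. *OSGIN2* and *RNF138* were closest to their earlier level, at 0.06 (−0.22 to 0.34) and 0.11 (−0.11 to 0.33). Without Z15228 or Z15408 *OSGIN2* was 0.02 or 0.14. *SLC2A9* was farthest above it, at 0.46 (−0.10 to 1.02). All 5 of its values at week 18, 3.69 to 5.09 CPM, exceeded all 5 before treatment, 2.46 to 3.55 CPM, as in 0.132% of the features tested, and 0.202% were lower without overlap. *SLC2A9* was higher in 5 animals and *OSGIN2* and *RNF138* in 4, where 3.04% of the features were higher in 5 and 17.5% in at least 4. Each of the 8 intervals holds 0, and they allow differences of up to −0.70 for *ELOVL4* and 1.02 for *SLC2A9*, so a difference from the pre-treatment level was not detected at week 18, and equality with it was not shown.

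**Figure D3:**
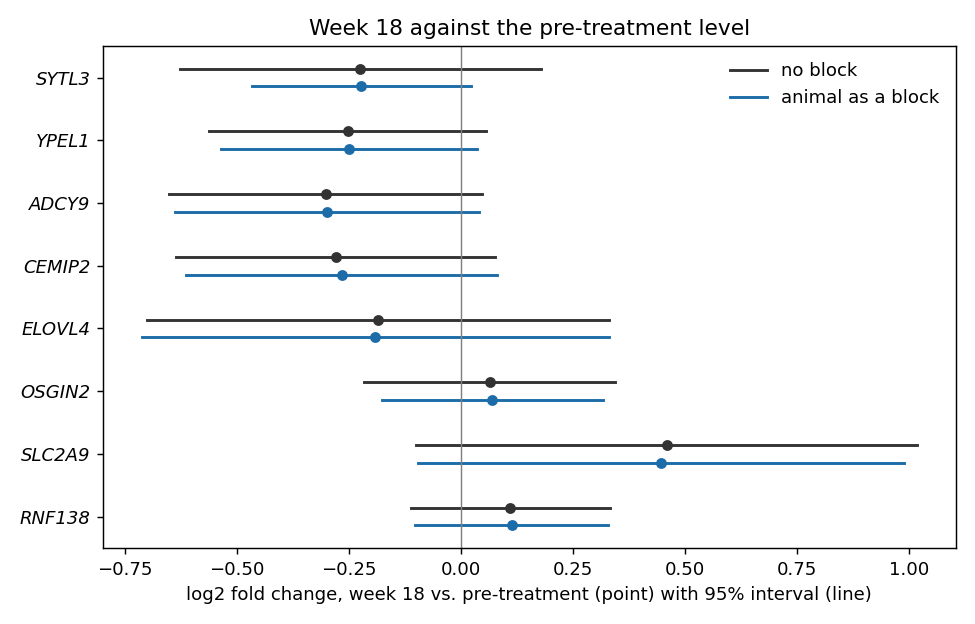
Log2 fold change of week 18 vs. pre-treatment (points) with its 95% interval (lines) from edgeR's fit, without a block (dark) and with the animal as a block (blue). All 16 intervals cross 0, with the points of the first 5 genes to the left and those of the last 3 to the right.

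At week 12, compared with the samples before treatment, the same genes stood on the opposite side. *SYTL3* was higher in every animal, by 0.47 on the log2 scale (standard error 0.19), with within-animal differences of 0.13, 0.70, 0.63, 0.26 and 0.49. *ELOVL4* and *YPEL1* were also higher in 5 of 5, with log2 fold changes of 0.57 (standard error 0.24) and 0.18 (standard error 0.15). For *YPEL1* the margin in Z15228 was 0.00096 on the log2 scale, where its reads went from 199 to 197. Most of the value for *YPEL1* came from Z15303, and without this animal it was 0.06. *OSGIN2* and *RNF138* were lower in 5 of 5 animals, at −0.32 (standard error 0.13) and −0.17 (standard error 0.11). Among all features, 2.21% were higher and 3.45% lower in 5 of 5, and 16.9% and 18.4% in at least 4. *ADCY9*, *CEMIP2* and *SLC2A9* had log2 fold changes of 0.16, 0.18 and −0.29 and were of mixed sign among animals. *SLC2A9* was lower in 4 animals, *ADCY9* higher in 3 and *CEMIP2* higher in 2, and these values rest on few animals. *CEMIP2* was 0.06 without Z15303. *ADCY9* was 0.03 without Z15339, 0.0971 without Z15408, 0.24 without Z15303 and 0.29 without Z13076. *SLC2A9* was −0.12 without Z15303, −0.16 without Z13076 and −0.52 without Z15408. *RNF138* was −0.11 without Z15228. None of the 12880 features was called by edgeR (0%), the 8 genes included (adjusted p = 1 for each), and 207 of them (1.61%) were under 0.05 before adjustment. DESeq2 (Wald) called 1 feature (0.00777%), which was not one of the 8 genes. With the animal as a block edgeR called 1 feature (0.00776%) and DESeq2 27 (0.214%), again none of these genes, and *SYTL3* had an adjusted p of 0.362 in edgeR. The week 12 libraries took part in the choice of the genes, so these signs are not independent of it.

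The mean of weeks 12 and 18 against the pre-treatment level is the comparison that the choice of the genes did not use, since it leaves out the difference between the 2 later samples. In this comparison the 8 genes had log2 fold changes between −0.13 for *OSGIN2* and 0.19 for *ELOVL4*, with a median of −0.03. *SYTL3* had 0.12 with a 95% interval of −0.23 to 0.47, and 0.06 without Z13076 or 0.21 without Z15228. None of the 8 was called (edgeR adjusted p = 1 for each), and none had an unadjusted p under 0.05, against 287 of the 12880 features, or 2.23%. EdgeR called no feature at all (0%), and DESeq2 (Wald) called 1 (0.00777%). With the animal as a block edgeR called 30 features (0.233%) and DESeq2 62 (0.481%), none of them among the 8 genes, whose edgeR adjusted p then lay between 0.863 and 0.969. Of the spread of each gene's log2 CPM over 15 libraries, the time point accounted for 36.8% (*CEMIP2*) to 63.4% (*ELOVL4*) of the sum of squares, and the animal for 11.1% (*ELOVL4*) to 42.0% (*SYTL3*). The medians over all features were 6.23% for the time point and 51.9% for the animal. The share of the time point follows in part from how the genes were chosen.

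B-cell markers were lower in both later samples than before treatment, the sample with which all 3 of these comparisons are made. The summed CPM of the 10 genes was 257 to 1074 before treatment, 146 to 543 at week 12 and 187 to 449.7 at week 18. The 9 tested genes were all negative, and their log2 fold changes had medians of −1.002 at week 12, −1.05 at week 18 and −0.98 for the mean of both. Without a block edgeR called none of them, with 5, 5 and 9 at an unadjusted p under 0.05, and with the animal as a block it called 0, 0 and 8. The same fit for the mean called 1 of 7 dendritic cell markers, *TCF4*, and no gene of the other marker lists. At week 12 all 8 monocyte markers were negative and all 7 platelet markers positive, with medians of −0.20 and 0.25, and 9 of 11 cytotoxic markers were positive, with a median of 0.15. At week 18 these medians were 0.21, 0.13 and −0.04. Their part in the values of the 8 genes was not tested.

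The families and partners of the 8 genes were examined between week 12 and week 18. In edgeR's test 0 of the 12880 features (0%) passed, with 0.505% at an unadjusted p under 0.05, and 0 were called by DESeq2 (Wald). With the animal as a block edgeR called 0 and DESeq2 1 (0.00776%), which was *SYTL3* itself, a call in the contrast that chose it. Among *SYTL3*'s relatives, *SYTL1* had a log2 fold change of 0.03 and *SYTL4* of −0.16 (standard errors 0.21 and 0.44), and *SYTL5* had at most 1 read per library. No feature was named *SYTL2*, so that relative could not be examined. *RAB27A*, which encodes the GTPase that recruits these proteins to granules, was lower in 5 of 5 animals, at −0.25 (standard error 0.19). The granule docking and fusion genes *UNC13D*, *STX11* and *STXBP2* had −0.04, −0.04 and 0.05. Over the 17 tested genes of this exocytosis list the median was 0.03, with 8 negative and 9 positive, and the median of all features was −0.0029. Apart from *SYTL3*, none of the 17 had an unadjusted p under 0.05. The 10 tested genes for the contents of lytic granules all had negative values, with a median of −0.18, and none had an unadjusted p under 0.05. Among them *GZMA* and *GZMB*, which encode granzymes, had −0.43 (standard error 0.38) and −0.36 (standard error 0.24), and *PRF1*, which encodes perforin, had −0.27 (standard error 0.27). The summed CPM of the 10 genes had log2 ratios of week 18 to week 12 of −0.23, −0.58, −0.34, 0.03 and −0.03 by animal. *GZMB* and *PRF1* are also among the cytotoxic markers described below, so the lists are not separate observations.

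*YPEL2* was lower in 4 of 5 animals, at −0.16 (standard error 0.15), and *YPEL3*, *YPEL4* and *YPEL5* had 0.01, 0.08 and −0.09. Of the adenylyl cyclases, *ADCY7* had the most reads, 2850 to 5496 per library, and a log2 fold change of 0.01 (standard error 0.09). *ADCY3*, *ADCY4*, *ADCY5* and *ADCY6* had −0.33, −0.11, −0.22 and 0.24, with standard errors of 0.32 to 0.80. Beyond the cyclases, the phosphodiesterase genes *PDE3B*, *PDE4A* and *PDE4D*, whose products break down cAMP, had −0.24, −0.25 and −0.25, and the 22 tested genes of the cAMP list had a median of −0.0040 with 12 negative and 10 positive. *CEMIP*, the closest relative of *CEMIP2*, had at most 4 reads per library, and *HYAL2* and *CD44*, encoding a hyaluronidase and the hyaluronan receptor, had 0.23 and −0.04. The other elongases tested, *ELOVL1*, *ELOVL5*, *ELOVL6* and *ELOVL7*, had 0.04, −0.08, −0.45 and −0.02. *OSGIN1* had 0.25 (standard error 0.44). In the oxidative stress list *NFE2L2* and *HMOX1*, for the NRF2 factor and heme oxygenase 1, had 0.01 and −0.09. Among the hexose transporters *SLC2A11* was lower in 5 of 5 animals, at −0.64 (standard error 0.26), against the direction of *SLC2A9*. In edgeR's fit over all features its p value was under 0.05 before adjustment and it was not called after it. *SLC2A10* had −0.43 and *SLC2A6* 0.27. *SLC2A1*, *SLC2A3*, *SLC2A5*, *SLC2A8*, *SLC2A12*, *SLC2A13* and *SLC2A14* lay between −0.12 and 0.36. *SLC2A3* and *SLC2A14* are near-identical copies that can share reads, so their counts are uncertain. The relatives of *RNF138*, namely *RNF114*, *RNF125* and *RNF166*, had −0.01, −0.01 and 0.14, and its partners in DNA end repair *RBBP8* and *XRCC5* had −0.11 and 0.05. In each of these 7 lists the median lay between −0.09 and 0.06, where the median of all features was −0.0029.

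**Figure D4:**
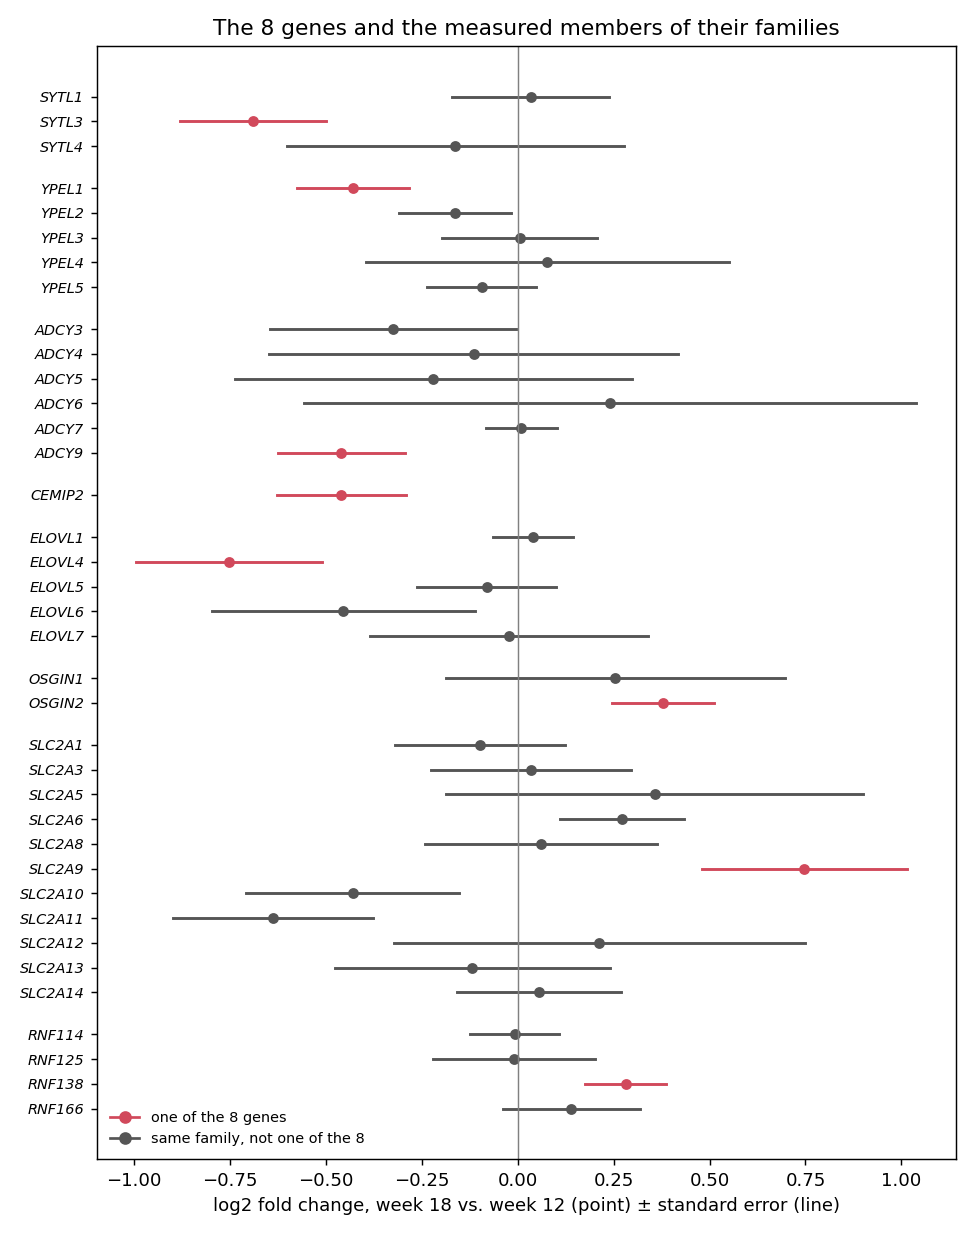
Log2 fold change of week 18 vs. week 12 (points) ± standard error (lines) from edgeR's fit for the 8 genes (red) and the tested members of their families (grey). *SYTL3* at −0.69 and *SYTL1* at 0.03 are the 2 best measured of their family, and the red points were chosen on this quantity.

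The genes whose pattern was most like that of *SYTL3* were sought by the Pearson correlation of log2 CPM over the 15 libraries after the mean of each animal was subtracted, among 9006 other symbol-named features of at least 5 CPM. The libraries share animals and depth, so the coefficients are a description. The first 5 were *PAFAH2* (r = 0.85), encoding a platelet-activating factor acetylhydrolase, *COL11A1* (r = 0.84), a collagen chain gene, *APBB2* (r = 0.81), *MCF2L* (r = 0.81), encoding a guanine nucleotide exchange factor, and *METAP1D* (r = 0.80), encoding a mitochondrial methionine aminopeptidase. The 3 means of *COL11A1* were 15.4 ± 4.69, 20.7 ± 8.85 and 13.5 ± 3.52 CPM in time order (SD, n = 5), and like *SYTL3* it stood highest at week 12 in 5 of 5 animals. *PAFAH2* had the same order of means, at 29.9 ± 6.59, 34.2 ± 8.49 and 29.3 ± 7.08 CPM. The other 3 genes were less uniform among animals. *APBB2* was higher at week 12 than before treatment in 3 animals, and lower at week 18 than at week 12 in 5. For *MCF2L* these counts were 5 and 3, and for *METAP1D* 3 and 3. The median coefficient over the 9006 features was 0.0022 and the 95th percentile 0.45. Among the chosen genes, *ADCY9*, *YPEL1*, *ELOVL4* and *CEMIP2* had coefficients with *SYTL3* of 0.73, 0.70, 0.64 and 0.62, and *OSGIN2*, *SLC2A9* and *RNF138* of −0.74, −0.71 and −0.83. Their choice on the last 2 time points fixes much of these values.

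Marker genes of other cell types were examined beside the 8 genes, and no marker was called between week 12 and week 18. The summed CPM of 11 marker genes of cytotoxic T and NK cells was 4258 to 8193 at week 12 and 4395 to 6524 at week 18, and its log2 ratio of week 18 to week 12 was −0.30, −0.66, −0.33, 0.05 and 0.02 by animal. The differences of *SYTL3* in the same order were −0.59, −0.82, −0.92, −0.20 and −0.77. The sum hardly moved in Z15303 and Z15408, where *SYTL3* differed by −0.20 and −0.77. It fell most in Z13076, at −0.66, where *SYTL3* differed by −0.82. For 10 of these 11 markers the log2 fold change was negative, with a median of −0.23 and none at an unadjusted p under 0.05. Monocyte markers (8 genes) summed to 2317 to 3515 CPM at week 12 and 2581 to 5197 at week 18, with log2 ratios of 0.67, 0.96, 0.16, −0.10 and 0.10, a median log2 fold change of 0.32 and 6 of 8 positive. *CD14*, a defining monocyte gene, was higher in 5 of 5 animals, at 0.68 (standard error 0.32), and was the only one of the 8 with an unadjusted p under 0.05. The B-cell markers had a median log2 fold change of −0.05 over 9 tested genes, and the T-cell markers one of 0.01 over 8. It was 0.09 for 6 markers of naive and central memory T cells, 0.16 for 7 of dendritic cells, −0.08 for 7 of platelets, 0.23 for 2 of red cells and −0.27 for 5 of dividing cells. Granulocyte markers (6 genes) had 0.42 and the 8 immediate early response genes 0.14, with *CSF3R* and *FOS* each at an unadjusted p under 0.05. The red cell list was uneven among animals. Its summed CPM (3 genes) had log2 ratios of week 18 to week 12 of −1.19, 3.10, −0.87, −1.74 and −0.01 by animal. The sum was lower in 4 of 5 animals and higher in Z13076 alone, although the median of the 2 tested genes was positive. No marker measured was at 0 in all libraries. The part of these markers in the differences between weeks 12 and 18 was likewise not tested.

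**Figure D5:**
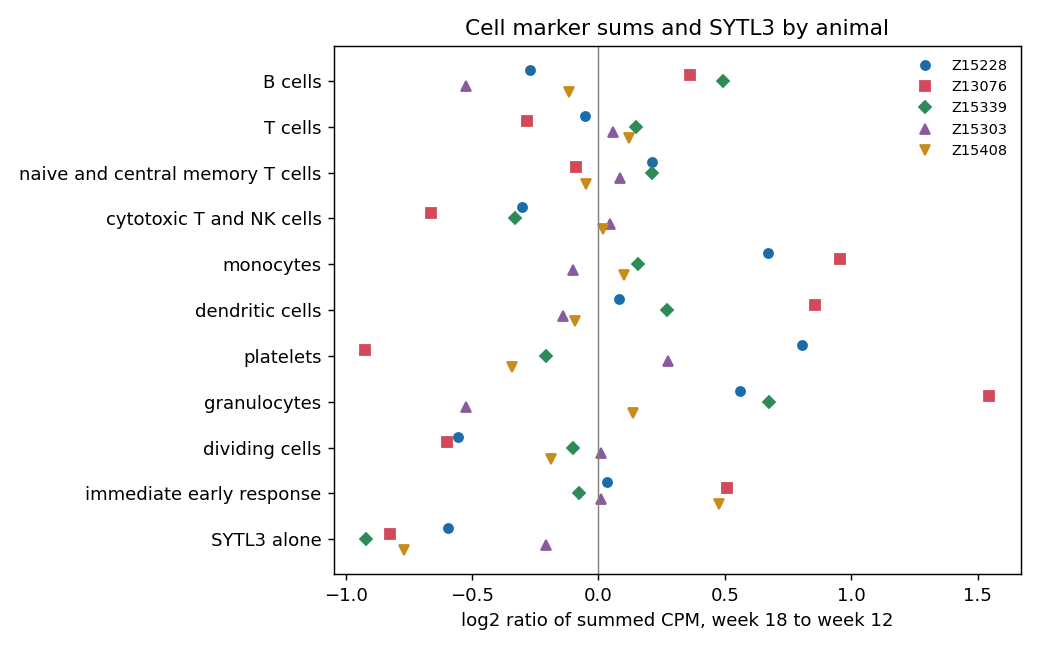
Log2 ratio of week 18 to week 12 (horizontal axis) of the summed CPM of each marker list except red cells, and of *SYTL3* alone, 1 symbol per animal. The red cell list, at −1.74 to 3.10, is not shown. The cytotoxic sum lies between −0.66 and 0.05 and *SYTL3* between −0.92 and −0.20, while the monocyte sum is to the right of 0 in 4 of 5 animals.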

How the data were processed

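PBMC RNA was amplified by the authors with the SMART-Seq v4 kit, which does not mark strand, so reads of overlapping antisense genes cannot be told apart. The authors aligned reads with STAR 2.7.9a, to the Ensembl release 95 build of *Macaca nemestrina*, and deposited raw read counts per gene (STAR's quantMode GeneCounts) without normalization. Which of its strand columns was used is not given in the sources used here. Group and animal were taken from the labels. The 8 genes and the gene lists were chosen with earlier results of these data known.

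Here R 4.3.3 was used with edgeR 4.0.16 (TMM, filterByExpr with a minimum count of 10, quasi-likelihood F test) and DESeq2 1.42.0. All 15 libraries were fitted together on time point alone, and p values were adjusted by Benjamini-Hochberg at 0.05, in edgeR over 12880 features. DESeq2 adjusted its p values itself, over 12864 features without the block. With the block it covered 12880 features, but 12630 for week 12 vs. pre-treatment. Standard errors are the absolute log2 fold change over the square root of F. Log2 CPM used a prior count of 2. Libraries of the same animal deviated together (mean r = 0.551 over 15 pairs, −0.137 between animals), since the labels give 1 animal for them, so the animal was also fitted as a block. All 8 genes are named. Of the lists, relatives of the 8 genes that passed the filter are named by rule, and other list genes were picked after their values were seen. The 5 genes nearest to *SYTL3* were taken by rank. Scripts were tested on simulated data. No sequence or genome was used here, and counts cover 5 animals sampled repeatedly. Without the block, p values rest on the spread between and within animals together and ignore the pairing. With the block they rest on the spread within animals.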

Additional observations from a re-analysis of the deposited data

Results flagged for a closer look

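In 48 sets of 5 values (8 genes, CPM at 3 time points and 3 within-animal differences), 4 held an animal far from the others by Dixon's test, and chance alone gives about 5% of sets. For *YPEL1* the difference of week 12 from pre-treatment was 0.76 on the log2 scale in Z15303 and 0.00096 to 0.07 in the other 4 animals. *ADCY9* at week 18 was 13.6 CPM in Z15303 and 9.40 to 10.5 CPM in the others. *OSGIN2* at week 12 was 19.7 CPM in Z15303 and 26.3 to 27.6 CPM in the others. For *RNF138* the difference of week 12 from pre-treatment was −0.37 in Z15228 and −0.15 to −0.10 in the others. Z15303 accounts for 3 of the 4, and its week 12 and week 18 libraries had the fewest counts. For *YPEL1*, however, its pre-treatment value of 13.4 CPM was the lowest of all animals, and that library had 9232914 counts. Its week 12 value for *YPEL1*, 22.8 CPM, lay within the range of the other animals. The part of depth in these values was not tested.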

How the results depend on the processing

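The direction of all 8 genes was kept in each of the 128 gene-by-setting values of every comparison but the mean of weeks 12 and 18 vs. pre-treatment, under RLE scaling, library size alone, no filter on low counts, DESeq2, the animal as a block and each animal left out. The direction from week 12 to week 18 was the criterion that chose the genes. Week 12 vs. pre-treatment and week 18 vs. pre-treatment share libraries with that choice. The signs kept in these comparisons thus follow in part from the choice and add no independent support. For the mean of weeks 12 and 18 vs. pre-treatment, which the choice did not use, 13 of 128 values changed sign. All of these were near 0 and had 1 animal left out. Without the block, leaving out 1 animal gave −0.1338 to 0.0184 for *YPEL1*, −0.1647 to 0.0376 for *ADCY9*, −0.1945 to 0.0440 for *CEMIP2*, −0.0694 to 0.2166 for *SLC2A9* and −0.0494 to 0.0161 for *RNF138*. With the block the values that changed sign were 0.0254 for *YPEL1* (without Z15228), 0.0504 for *ADCY9* (without Z13076), 0.0176 and 0.0558 for *CEMIP2* (without Z15228 and Z15408), −0.0067 and −0.0666 for *SLC2A9* (without Z15228 and Z15408) and 0.0166 for *RNF138* (without Z15228).

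The number of features called among all tested, 0 in each of the 4 comparisons, moved mainly with the replicate block. For week 18 vs. pre-treatment it was 1 with edgeR and 43 with DESeq2 under the block. For week 12 vs. pre-treatment it was 1 and 27, and 1 with DESeq2 without it. For the mean of weeks 12 and 18 it was 30 and 62, and 1 with DESeq2 without it. For week 18 vs. week 12 it was 0 and 1. Leaving out 1 animal under the edgeR block, an alternative chosen after seeing the data, gave 0 to 17, 0 to 6 and 0 to 39 features in the first 3 comparisons, the highest each time without Z13076, and 24, 9 and 3 for the third without Z15408, Z15303 and Z15339. The 1 feature called by DESeq2 under the block for week 18 vs. week 12 was *SYTL3*. No other call among the 8 genes changed. The cause was not tested. Counts of 12 to 49 for *ELOVL4* and 9 to 46 for *SLC2A9* limit their precision most.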
